A study of Mus musculus with 6 samples.

Results

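The genes described here encode the nicotinic acetylcholine receptor of skeletal muscle and the machinery that gathers it at the neuromuscular junction. They were chosen by symbol, and each of the 8 has its own entry among the 20950 of the deposited table: the receptor subunit genes Chrna1, Chrnb1, Chrnd, Chrng and Chrne, and the clustering genes Musk, Rapsn and Dok7. Of these, 7 reached a mean of 1 FPKM over the libraries and entered the tests across genes, and Chrne did not. FPKM corrects the reads of each gene for transcript length and library depth, so levels of different genes can be set side by side. The study asked how exosomes, the small vesicles carried in serum, act on differentiating muscle cells. It used C2C12, an established mouse myoblast line of 1 clonal origin that fuses into myotubes when serum is lowered, grown in DMEM in every condition and without neurons. Growing cells were kept in 10% FBS (fetal bovine serum). Differentiating cells were kept in 2% HS (horse serum) or in 0.2% FBS, each without and with added exosomes isolated from FBS, in the amount that 10% FBS contains.

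The mRNA of these cells was sequenced as 6 libraries, 1 each for 10% FBS, 2% HS, 2% HS + exosome and 0.2% FBS, and 2 for 0.2% FBS + exosome (replicates 1 and 2). The deposited values carry no read counts, and the depth estimated from the spacing of low values was between 33700000 and 39100000 reads per library. The control of each medium is a single library, which leaves the variation among control cultures unmeasured, and comparisons of 1 library with 1 have no replicates behind them. Nothing in the labels says that the libraries come from separate cultures, so p-values measure the spread between these samples. On the scale used throughout, differences of log2(FPKM + 1), the median of the 10726 genes tested moved by 0.14 with exosomes in 0.2% FBS (0.09 in replicate 1 and 0.18 in replicate 2) and by −0.04 in 2% HS.

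In the muscle membrane the receptor is a ring of subunits around a cation channel. Fetal and non-innervated muscle builds it with the γ subunit (Chrng), and this is replaced by the ε subunit (Chrne) after birth, while α1 (Chrna1), β1 (Chrnb1) and δ (Chrnd) are common to both forms. Agrin released by the motor nerve acts through Lrp4 on the kinase MuSK (Musk), which needs the adaptor Dok7, and the scaffold protein rapsyn (Rapsn) then holds receptors in clusters. The subunit genes are textbook targets of myogenic transcription factors, which bind E-boxes in their promoters. The cells were checked against markers of 3 cell types. Of 6 genes of the muscle lineage, 5 passed the filter. Among these was Myog, a differentiation factor, at 512 FPKM in 10% FBS, 564 in 2% HS and 663 in 0.2% FBS. Des (desmin) was between 543 and 1061 FPKM in the 6 libraries, Myog between 350 and 720, Cdh15 between 123 and 153, Myod1 between 83.7 and 110 and Myf5 between 4.22 and 12.9. Pax7, a factor of muscle stem cells, stayed between 0.0996 and 0.623 FPKM. The neuronal marker Snap25 stayed at or below 0.0308 FPKM, and Chat and Slc18a3 were listed at 0 in every library. Of 8 neuron markers, Tubb3 and Stmn2 alone passed the filter, and the summed level of the 8 was between 16.0 and 55.1 FPKM. With exosomes in 0.2% FBS, Tubb3 changed by −1.37 (limma adjusted p = 0.0160), and Stmn2 was at 17.9 FPKM without and at 25.2 and 52.8 FPKM with exosomes (0.99, limma adjusted p = 0.0944). Stmn2 was at 29.5 FPKM in 10% FBS and at 11.4 in 2% HS, a difference of −1.30. Their part in the results was not tested. Of 6 Schwann cell markers only Erbb3, also a gene of muscle, passed the filter.

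Chrna1 lies at chr2:73563215-73580338 on the minus strand, Chrnb1 at chr11:69784036-69795943 on the minus strand, Chrne at chr11:70614883-70619216 on the minus strand, Musk at chr4:58285960-58374303, Rapsn at chr2:91035620-91045729 and Dok7 at chr5:35056766-35087839 on the plus strand. Chrnd, at chr1:87190607-87200070, and Chrng, at chr1:87204657-87212694, are neighbours on the plus strand (all GENCODE vM21 on GRCm38). The upstream stretches of 4 members are shown because they hold E-boxes, the binding sites of MyoD and myogenin, or the N-box of Chrne, bound by GABP in synaptic nuclei. They come from RefSeq on GRCm38.p6, run 5′ to 3′ on the strand of the gene and end at the base before its RefSeq start. Capitals mark the E-box CAGCTG, the E-box CACCTG, which is written CAGGTG where it lies on the opposite strand, and the N-box CCGGAA.
Chrng, chr1:87205561-87205810, plus strand: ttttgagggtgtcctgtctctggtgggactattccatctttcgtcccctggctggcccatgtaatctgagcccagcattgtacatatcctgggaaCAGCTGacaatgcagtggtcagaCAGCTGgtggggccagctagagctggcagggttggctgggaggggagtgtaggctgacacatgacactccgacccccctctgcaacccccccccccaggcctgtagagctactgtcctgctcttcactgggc
Chrna1, chr2:73580339-73580488, minus strand: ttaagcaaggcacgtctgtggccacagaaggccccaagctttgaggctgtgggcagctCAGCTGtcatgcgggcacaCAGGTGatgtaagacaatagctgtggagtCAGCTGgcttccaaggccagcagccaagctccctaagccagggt
Musk, chr4:58285812-58285961, plus strand: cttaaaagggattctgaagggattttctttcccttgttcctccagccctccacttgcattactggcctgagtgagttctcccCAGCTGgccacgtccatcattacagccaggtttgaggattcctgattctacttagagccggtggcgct
Chrne, chr11:70619195-70619344, minus strand: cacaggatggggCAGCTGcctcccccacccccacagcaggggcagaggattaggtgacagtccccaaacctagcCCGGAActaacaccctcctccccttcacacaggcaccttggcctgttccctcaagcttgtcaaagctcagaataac

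The Chrng stretch lies inside the span that GENCODE gives the gene, which begins further upstream. Counted back from the start, Chrng holds CAGCTG at −155 to −150 and at −132 to −127. Chrna1 holds CAGCTG at −92 to −87 and at −44 to −39, with CAGGTG between them at −73 to −68. Chrne holds 1 CAGCTG, at −138 to −133, and 1 CCGGAA, at −76 to −71. Musk holds 1 CAGCTG, at −68 to −63, and Chrnb1 holds CAGGTG at −29 to −24. Neither hexamer was in the stretches of Dok7, which has 2 RefSeq starts. Entries were matched for 6 of the 8 members (7 starts), and Chrnd and Rapsn had none. Both strands of the 250 bases upstream were searched. Among 32851 such stretches, CAGCTG occurred in 13.0%, and 2 or more times in 1.26%, CACCTG in 17.2% and CCGGAA in 12.03%. The general E-box CANNTG, which includes the first pair of hexamers, was in 66.2%. A match describes the letters only and is not a bound site.

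Transcripts of the receptor subunits were more abundant in 2% HS and in 0.2% FBS, both without exosomes, than in growing cells. Chrna1, the subunit that carries most of the acetylcholine binding site, was at 194 FPKM in 10% FBS, at 381 in 2% HS and at 359 in 0.2% FBS. Chrng, the fetal subunit, was at 171, 378 and 377 FPKM in the same order, a ratio to 10% FBS of 2.21 in each medium. Chrnd was at 103, 157 and 149 FPKM, and Chrnb1 at 69.9, 106 and 90.9. The 4 genes thus lay above their growth level in both low-serum media, which share the 10% FBS library as their reference. On the log2 scale the median of these 4 was 0.78 in 2% HS and 0.70 in 0.2% FBS, beside −0.08 and −0.09 for all genes tested. Of the 7 members tested, Chrng was past a difference of 1, at 1.14 in 2% HS and 1.14 in 0.2% FBS, and Chrna1 was just inside it at 0.97 and 0.89. Relative to Rpl13a the 2% HS differences were larger and all 4 subunits were past 1. Chrng was at 1.71, Chrna1 at 1.54, Chrnd at 1.16 (from 0.60) and Chrnb1 at 1.16 (from 0.59). In 0.2% FBS Chrng (1.48) and Chrna1 (1.23) were past 1 relative to Rpl13a. Under that scaling 796 of the 10726 genes tested were past 1 in 2% HS and 407 in 0.2% FBS. The median of all genes tested was then 0.43 and 0.21. Chrne, below 1 FPKM in every library, was at 0.59 and 0.45 without division by Rpl13a and with a pseudocount of 1. With a pseudocount of 0.1 it was at 1.55 and 1.26, and its ratios to 10% FBS were 3.81 and 3.02. Without division by Rpl13a, 1.79% of all genes tested were higher by more than 1 in 2% HS and 1.79% in 0.2% FBS. These are differences between single libraries and carry no test. In bulk RNA, fewer cells that make a transcript and less of it in each cell cannot be told apart.

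**Figure D1:**
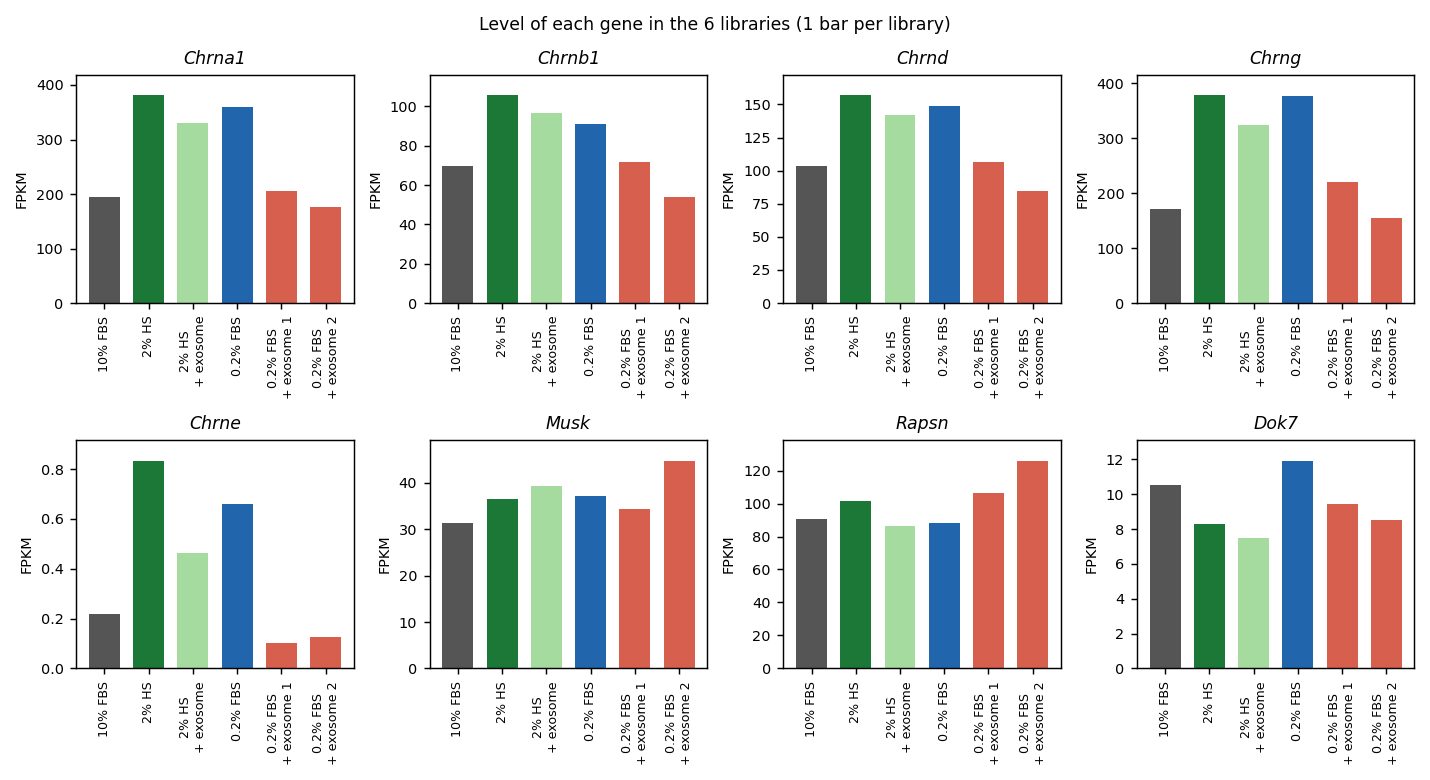
Level of each of the 8 genes in FPKM (vertical axis, from 0 and scaled per gene) in the 6 libraries, 1 bar per library. The subunit genes Chrna1, Chrnb1, Chrnd, Chrng and Chrne are lowest in 10% FBS and in both 0.2% FBS + exosome libraries, and Musk, Rapsn and Dok7 do not share that order.

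With exosomes in 0.2% FBS the receptor subunits Chrna1, Chrng, Chrnd and Chrnb1 stood near the level of growing cells. Chrne, at 0.102 and 0.127 FPKM, was below its 0.219 FPKM in 10% FBS. Chrna1 had 359 FPKM without exosomes, and with them 205 FPKM in replicate 1 and 177 in replicate 2, or 57.2% and 49.2% of the control. Both libraries were below every differentiating library of the other conditions, and the 194 FPKM of 10% FBS lay between them. Chrng was at 377 FPKM without and at 221 and 156 FPKM with exosomes, or 58.6% and 41.3%. Its 10% FBS level of 171 FPKM again fell between the replicates. Chrnd, whose product stands beside an α1 subunit at a binding site, was at 149, 106 and 84.8 FPKM. Chrnb1, which completes the shared part of the ring, was at 90.9, 71.8 and 53.8 FPKM. For each of the 4, the 3 libraries of 2% HS, 2% HS + exosome and 0.2% FBS were higher than 10% FBS and both 0.2% FBS + exosome libraries, an order found in 14.3% of all genes tested and noticed after the values had been seen.

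The changes were −0.91 for Chrna1 (SD 0.15, n = 2), −1.02 for Chrng (SD 0.35), −0.64 for Chrnd (SD 0.23) and −0.54 for Chrnb1 (SD 0.29). Replicate 2 was the lower of both libraries for each of these genes, with Chrng at −0.77 in replicate 1 and −1.27 in replicate 2. The median of the 4 was −0.78 beside 0.14 for all genes tested. A lower change than that of Chrng was found in 2.18% of genes, than Chrna1 in 2.67%, than Chrnd in 4.91% and than Chrnb1 in 6.22%. Of the 7 members tested, 0 passed the threshold of −1 in each exosome library, which 1.61% of all genes did. The change of Chrne depended on the pseudocount, at −0.58 with 1 and −1.83 with 0.1. In replicate 2 alone, Chrna1 (−1.02) and Chrng passed −1, as did 305 of the 10726 genes tested. A limma fit with 1 mean per condition gave Chrna1 an adjusted p of 0.0532 (SE 0.26) and Chrng one of 0.0541 (SE 0.29). Its spread comes from replicates 1 and 2 alone. The SE of each gene is drawn toward the trend of spread with level over all genes tested, so it is not that gene's own spread alone. The limma values were 0.0917 for Chrnd (SE 0.22) and 0.137 for Chrnb1 (SE 0.22). Of the 7 members tested, 0 had an adjusted p under 0.05 in either direction, against 4.33% of all genes lower and 8.2% higher, and 5 had an unadjusted p under 0.05, as did 31.5% of all genes. These 5 were the 4 subunits and Dok7.

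The calls of Chrna1, Chrng and Chrnd lie close to the threshold and moved with the processing. With every library brought to a common 75th percentile, limma gave adjusted p-values of 0.0222, 0.0255 and 0.0440 for Chrna1 (change −1.02), Chrng (−1.13) and Chrnd (−0.75). That scaling also raised the number of genes called lower, to 794 of the 10726 tested from 464. Over all alternatives the adjusted p of limma ran from 0.0222 to 1.00 for Chrna1, from 0.0255 to 1.00 for Chrng and from 0.0440 to 1 for Chrnd. The 1.00 of Chrna1 and Chrng came from a common exosome effect fitted with the title number as a block. That fit was added after the data were seen and called 0 genes. Without the block, the common effect gave both an adjusted p of 0.705 in limma, their next highest value.

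**Figure D2:**
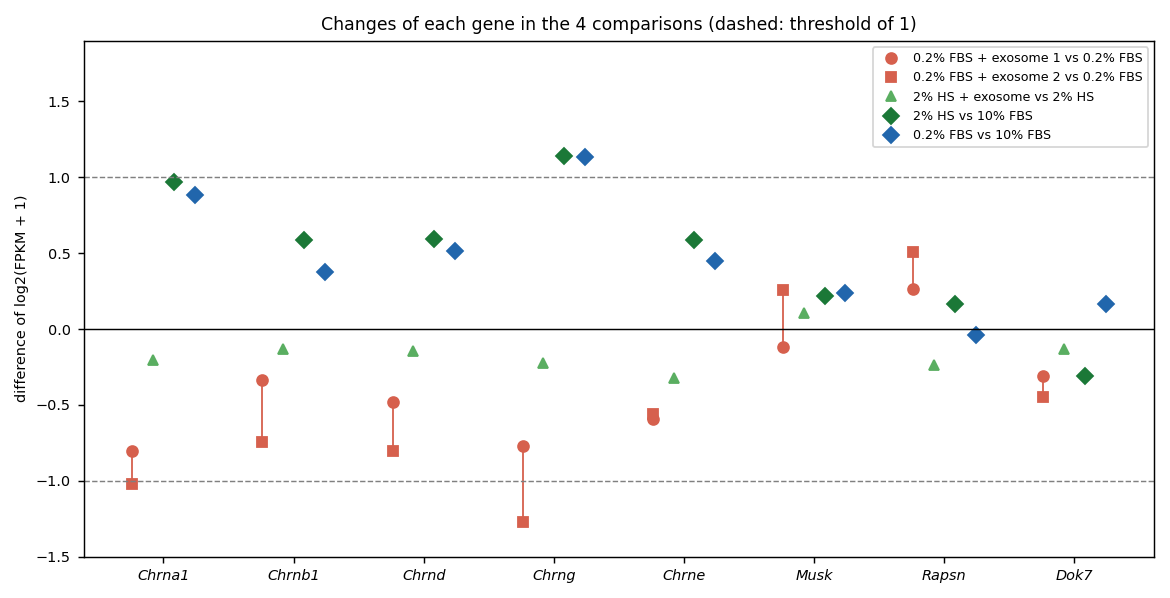
Differences of log2(FPKM + 1) for each gene (vertical axis) in the exosome comparisons and in the comparisons of differentiating with growing cells; each point is 1 library against its control, and the dashed lines mark 1 and −1. Chrng is past 1 in both low-serum media, and Chrna1 and Chrng are past −1 in replicate 2 of 0.2% FBS + exosome; Chrne, below 1 FPKM, is within these lines on this scale but past them with a pseudocount of 0.1 (1.55, 1.26 and, with exosomes in 0.2% FBS, −1.83).

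The fetal subunit exceeded the adult subunit by a wide margin in every library. Chrng was between 156 and 378 FPKM and Chrne between 0.102 and 0.834 FPKM. The ratio of Chrng to Chrne was 781 in 10% FBS, 454 in 2% HS, 696 in 2% HS + exosome and 570 in 0.2% FBS, and 2169 and 1222 in replicates 1 and 2 of 0.2% FBS + exosome. Chrne therefore made up at most 0.220% of the sum of both levels, and this share was 0.175% in 0.2% FBS and 0.0461% and 0.0818% with exosomes there. Chrne itself was at 0.219 FPKM in 10% FBS, 0.834 in 2% HS, 0.464 in 2% HS + exosome and 0.662 in 0.2% FBS, and exosomes in 0.2% FBS went with 0.102 and 0.127 FPKM. Like the other subunits it was low in growing cells and higher in both low-serum media, and it was lowest with exosomes in 0.2% FBS. In linear terms Chrne stood at 15.4% and 19.3% of its control in replicates 1 and 2, and at 55.7% in 2% HS. These values rest on few reads, an estimated 34.3 without exosomes and 5.07 and 6.09 with them in 0.2% FBS, and 12.1 in 10% FBS, using the longest annotated transcript.

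How the fetal gene moved relative to the adult gene depends on the treatment of low values. The change of log2(Chrng + 1) minus log2(Chrne + 1) with exosomes in 0.2% FBS was −0.44, with −0.18 in replicate 1 and −0.71 in replicate 2. With a pseudocount of 0.1 it was 0.81, and with 0.01 it was 1.41. In 2% HS the same quantity was 0.10, 0.50 and 0.61. No test was made of it, and Chrne was below the filter of the fit across genes. The gene 4930544D05Rik lies on the opposite strand inside Chrne without overlapping its exons, and it was between 0 and 0.456 FPKM.

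**Figure D3:**
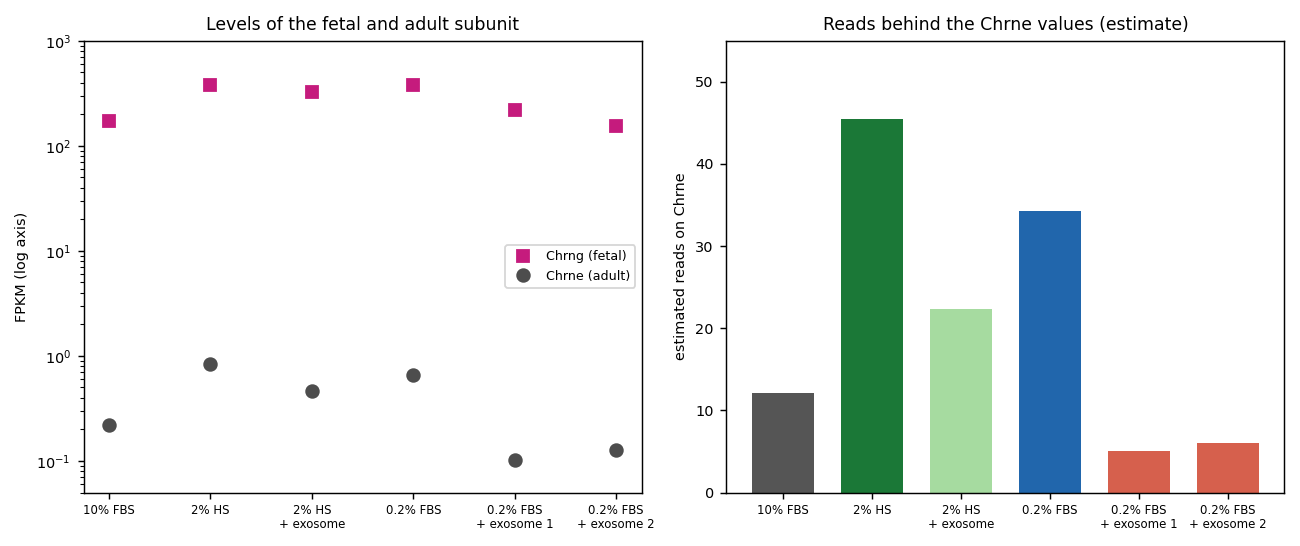
Left, FPKM of Chrng (squares) and Chrne (circles) in each library on a log axis; right, the estimated number of reads behind each Chrne value. Chrng lies between 156 and 378 FPKM and Chrne below 1 FPKM in all 6 libraries, with 5.07 and 6.09 estimated reads of Chrne in the 0.2% FBS + exosome libraries.

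The clustering genes were expressed at lower levels than Chrna1 and had no order of levels in common. Rapsn was at 90.7 FPKM in 10% FBS, 102 in 2% HS, 86.3 in 2% HS + exosome and 88.5 in 0.2% FBS, and with exosomes in 0.2% FBS at 107 FPKM in replicate 1 and 126 in replicate 2. The 2 exosome libraries of 0.2% FBS were the highest of the 6, while the subunits were near their lowest there. Its change of 0.39 (SD 0.17, n = 2) had an adjusted p of 0.238 in limma (SE 0.21). The change was 0.13 relative to Rpl13a, and 0.12 with 1 common exosome effect fitted to both media. Exons of the annotated gene Gm13778 overlap Rapsn on the opposite strand, and the strand setting of the FPKM calculation is not given in the sources used here.

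Musk, the kinase that agrin activates, varied without a shared order. It was at 31.4 FPKM in 10% FBS, 36.6 in 2% HS, 39.4 in 2% HS + exosome and 37.2 in 0.2% FBS, and with exosomes in 0.2% FBS at 34.3 FPKM in replicate 1 and 44.8 in replicate 2. The replicates lay on either side of their control, and the mean change of 0.07 (SD 0.27, n = 2, limma adjusted p = 0.841) turned to −0.03 after scaling to the same 75th percentile and to −0.18 relative to Rpl13a. Dok7, the cytoplasmic activator of MuSK, was the least abundant of the 7 tested. It was at 10.5 FPKM in 10% FBS, 8.32 in 2% HS, 7.49 in 2% HS + exosome, 11.9 in 0.2% FBS, and 9.46 and 8.50 FPKM with exosomes in 0.2% FBS. Against 10% FBS, Dok7 was at −0.31 in 2% HS and 0.16 in 0.2% FBS, and relative to Rpl13a both differences were positive, at 0.21 and 0.48. With exosomes in 0.2% FBS its change was −0.38 (SD 0.10, n = 2, limma adjusted p = 0.155).

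Setting the subunits against Rapsn within a library removes the depth of that library from the comparison. The ratio of Chrna1 to Rapsn was 2.14 in 10% FBS, 3.74 in 2% HS, 3.83 in 2% HS + exosome and 4.06 in 0.2% FBS, and 1.93 and 1.40 in replicates 1 and 2 of 0.2% FBS + exosome. For Chrng to Rapsn these ratios were 1.89, 3.71, 3.75, 4.27, 2.07 and 1.24. Both ratios were thus highest in the same 3 differentiating libraries, and lower in growing cells and in 0.2% FBS with exosomes. Among the subunits Chrna1, Chrng, Chrnd and Chrnb1, leaving Chrne aside, the proportions moved less. Chrng to Chrnd ran from 1.65 in 10% FBS to 2.54 in 0.2% FBS, and it was highest in the same 3 differentiating libraries. Chrng to Chrna1 lay between 0.882 and 1.08 in the 6 libraries, Chrnd to Chrna1 between 0.412 and 0.533 and Chrnb1 to Chrna1 between 0.253 and 0.360. The highest ratios of Chrnd and Chrnb1 to Chrna1 were those of 10% FBS.

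**Figure D4:**
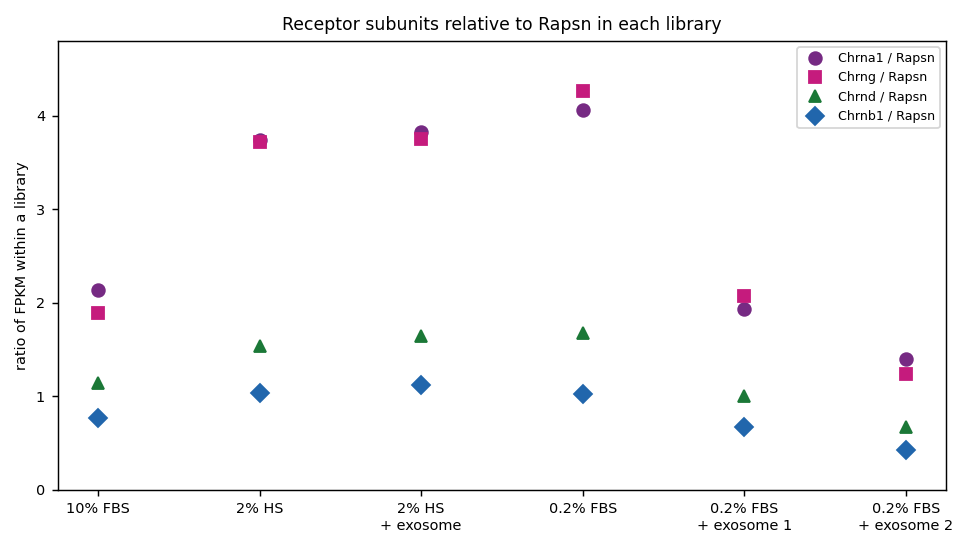
Ratio of the FPKM of each receptor subunit gene to that of Rapsn (vertical axis, from 0) in each of the 6 libraries. Chrna1 and Chrng are between 3.71 and 4.27 times Rapsn in 2% HS, 2% HS + exosome and 0.2% FBS, and between 1.24 and 2.14 times Rapsn in 10% FBS and 0.2% FBS + exosome.

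In 2% HS, the subunit genes stood closer to their control with added exosomes than in 0.2% FBS, and the test of the difference between the media, given after the values, was passed by 0 members. The labels do not say whether both media received 1 preparation of exosomes. Chrna1 was at 381 FPKM without and 330 with exosomes, or 86.6% of the control, and Chrng at 378 and 323, or 85.5%. Chrnd was at 157 and 142 FPKM and Chrnb1 at 106 and 96.4. On the log2 scale the 4 subunits ranged from −0.13 to −0.23, with a median of −0.18 beside −0.04 for all genes tested. Rapsn was at −0.24 and Dok7 at −0.13, while Musk was at 0.10, or at −0.050 relative to Rpl13a. Of the members tested, 0 were lower by more than 1, as were 0.298% of all genes. Lower in all 3 exosome libraries, at any size, were 5 of the 7 tested, namely Chrna1, Chrnb1, Chrnd, Chrng and Dok7, and 15.5% of all genes. Replicates 1 and 2 share their control.

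The difference between the media was tested directly in limma, as the exosome change in 0.2% FBS minus that in 2% HS. It was −0.71 for Chrna1 (SE 0.39, adjusted p = 0.360), −0.79 for Chrng (SE 0.44, adjusted p = 0.360), −0.50 for Chrnd (SE 0.34, adjusted p = 0.459) and −0.41 for Chrnb1 (SE 0.34, adjusted p = 0.538). Leaving out replicate 2 or replicate 1 moved the Chrnb1 difference to −0.21 or −0.62. Rapsn was the member with a positive difference, 0.62 (SE 0.31, limma adjusted p = 0.317), being higher in both exosome libraries of 0.2% FBS and lower in that of 2% HS. Of the 7 members 0 passed, against 1.17% of all genes, and 0 had an unadjusted p under 0.05, against 19.5%. The test assumes that the single libraries spread as replicates 1 and 2 do. A p above the threshold does not show that the exosome change was alike in both media.

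Other genes followed the fetal subunit closely over the 6 libraries. Those with the highest Pearson correlation to Chrng on the log2 scale were Adam8 (0.998), a membrane metalloprotease, Acta2 (0.997), the smooth muscle actin that early myotubes also make, Cds2 (0.995), an enzyme of phosphatidylinositol synthesis, AU018091 (0.995) and Pea15a (0.995). Acta2 was at 1511 FPKM in 10% FBS, 2297 in 2% HS, 2067 in 2% HS + exosome and 2276 in 0.2% FBS, and with exosomes in that medium it had 1768 and 1406 FPKM. Of the members, Chrna1 (0.984), Chrnd (0.976) and Chrnb1 (0.941) were close to Chrng, whereas Dok7 (−0.01), Musk (−0.02) and Rapsn (−0.56) were not. These correlations describe 6 libraries of shared origin and carry no test. Des, the muscle intermediate filament gene, was at 630 FPKM in 10% FBS, 1061 in 2% HS, 805 in 2% HS + exosome and 1043 in 0.2% FBS, while the 0.2% FBS + exosome libraries had 559 and 543 FPKM. The ratio of Chrna1 to Des, chosen after the values were seen, lay between 0.308 and 0.410 in the 6 libraries.

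Genes of agrin and MuSK signalling did not move as a block. With exosomes in 0.2% FBS, 3 of 15 rose and 2 fell in limma, with a median of 0.33. These and the following counts stand beside 8.2% of all genes that rose and 4.33% that fell, so that a single call in a list of this size is close to that background. Agrn, the agrin gene, which muscle also transcribes, was at 7.14 FPKM without and at 13.1 and 15.3 FPKM with exosomes (change 0.90, limma adjusted p = 0.0183). Abl1, a kinase reported to act downstream of MuSK, was at 11.8, 21.5 and 22.5 FPKM (0.84, limma adjusted p = 0.0177), and Cdk5, a kinase that disperses receptor clusters, at 10.6, 16.8 and 19.6 FPKM (0.72, limma adjusted p = 0.0301). Fyn, a Src family kinase, was at 68.8 FPKM without and at 31.0 and 33.9 FPKM with exosomes (−1.06, limma adjusted p = 0.0124). It was at 63.7 and 94.8 FPKM without and with exosomes in 2% HS, and the difference between the media was −1.63 (limma adjusted p = 0.0335). Abl2, the second Abl kinase, was at 17.2, 10.6 and 9.58 FPKM in 0.2% FBS (−0.72, limma adjusted p = 0.0274). Lrp4, the agrin receptor, was at 46.2 FPKM without and at 49.1 and 40.4 FPKM with exosomes. Apart from Agrn, these genes were named after their values had been seen.

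In the synaptic basal lamina 1 of 8 genes tested fell and 0 rose in limma (4.33% and 8.2% of all genes), with a median of 0.26. It was Colq, the collagen tail that anchors acetylcholinesterase, at 3.13 FPKM without and 0.871 and 0.818 FPKM with exosomes (−1.16, limma adjusted p = 0.0109), after 0.953 FPKM in 10% FBS. Colq reached the filter only through the libraries where it was high. With no filter, a setting in which limma called 0 genes, its limma adjusted p was 0.244, as for Agrn and Fyn. Ache, acetylcholinesterase itself, was at 2.09, 1.85 and 1.41 FPKM (−0.24, limma adjusted p = 0.453). Among scaffold and sodium channel genes 3 of 13 fell and 1 rose in limma (4.33% and 8.2% of all genes), and the median was −0.49. Scn4a, the muscle sodium channel concentrated in the junctional folds, was at 9.15 FPKM without and 3.72 and 2.55 FPKM with exosomes (−1.31, limma adjusted p = 0.0105). Nes, the intermediate filament nestin, which muscle keeps at the junction, was at 523, 261 and 178 FPKM (−1.27, limma adjusted p = 0.0367). Macf1, a cytoskeletal linker, changed by −0.94 (limma adjusted p = 0.0424) and Sntb2, the β2 syntrophin, by 0.70 (limma adjusted p = 0.0380). Utrn, the junctional relative of dystrophin, was at 22.3, 17.0 and 14.2 FPKM (−0.49, limma adjusted p = 0.0912). Syne1 was left out because the table lists it under a repeated name. Nes, Macf1 and Sntb2 were named after their values had been seen.

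Among regulators of the receptor genes 1 of 12 tested fell and 3 rose in limma (4.33% and 8.2% of all genes), with a median of 0.40. Mef2c, a myogenic cofactor, had 13.4 FPKM in 0.2% FBS alone, and 4.39 and 3.48 with exosomes added (−1.56, limma adjusted p = 0.00657). In 2% HS it was at 8.20 FPKM without and 12.2 with them, and the difference between the media was −2.07 (limma adjusted p = 0.0186). Id1 and Id3 encode proteins that sequester the partners of MyoD and keep it off E-boxes. Id3 was at 65.9 FPKM in growing cells, 8.50 in 2% HS and 15.0 in 0.2% FBS, and exosomes in 0.2% FBS went with 37.9 FPKM in replicate 1 and 123 in replicate 2 (2.12, SD 1.19, limma adjusted p = 0.0375). It was past a change of 1 in each exosome library, as were 0.895% of all genes in that direction. Id1 was at 15.7, 29.3 and 42.6 FPKM (1.12, limma adjusted p = 0.0209) and Myf5, a factor of undifferentiated myoblasts, at 5.39, 10.1 and 12.9 FPKM (0.96, limma adjusted p = 0.0196). Myod1 was at 110 FPKM without and 87.6 and 101 FPKM with exosomes (−0.23, limma adjusted p = 0.472). Myog was at 663 FPKM without and 350 and 401 FPKM with exosomes in 0.2% FBS (−0.82, limma adjusted p = 0.120). In 2% HS Myog was at 564 FPKM without and 720 with them, a change of 0.35. With exosomes in 2% HS, Id1 was at −0.14 and Id3 at −0.11, beside a median of −0.04 for all genes tested. Id2 was at −1.12 (8.32 FPKM without and 3.29 with exosomes). These are differences between single libraries. Id2 alone of the 12 was past −1 there, as were 0.298% of all genes, and in 0.2% FBS it was at 0.39. Id1, Id2, Myf5 and Myog were named here after their values had been seen.

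**Figure D5:**
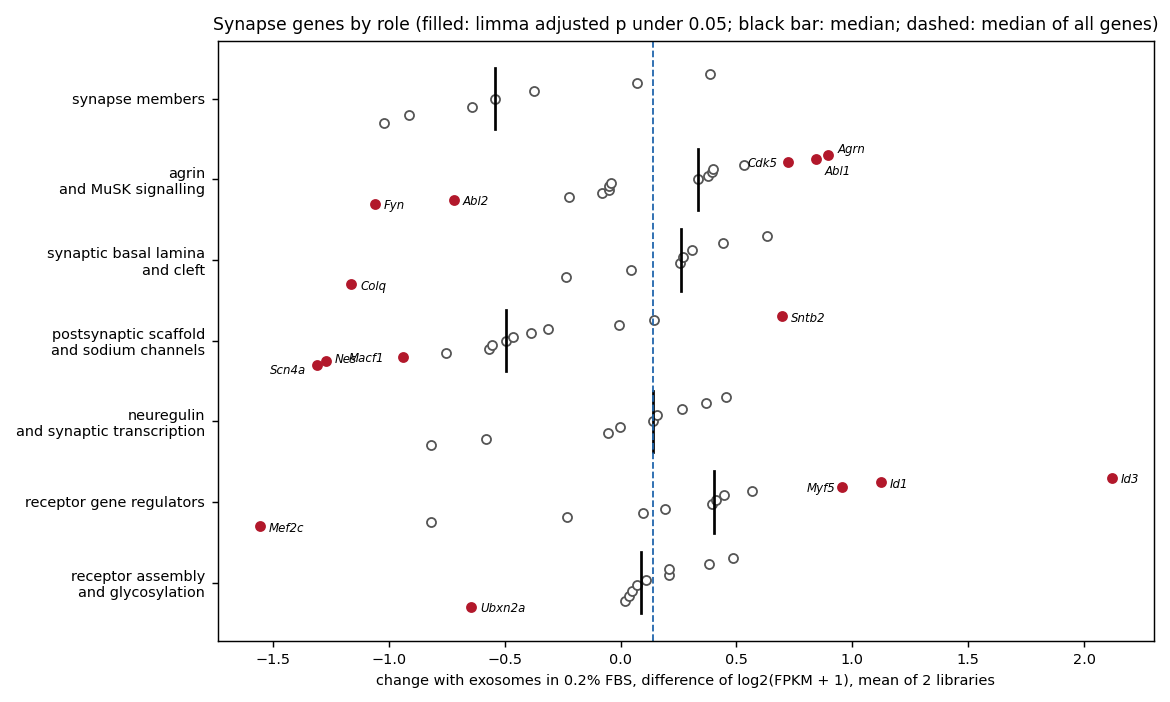
Change with exosomes in 0.2% FBS (horizontal axis, difference of log2(FPKM + 1), mean of 2 libraries) of each gene tested, by role; filled points have a limma adjusted p under 0.05, black bars are medians and the dashed line is the median of all genes tested, 0.14. No member of the top group is filled, Fyn, Abl2, Colq, Scn4a, Nes, Macf1, Mef2c and Ubxn2a are filled on the lower side, and Agrn, Abl1, Cdk5, Sntb2, Myf5, Id1 and Id3 on the higher side.

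The limma calls of the other synapse genes have the same limits as those of the members. With the 2 media fitted to 1 common exosome effect, limma called 0 genes of the whole table (708 at an unadjusted p under 0.05), and with no filter on low values also 0 (3120 unadjusted). In the neuregulin group, 0 of 9 genes tested passed in limma (median 0.14). Nrg1 was at 2.25 FPKM without and 3.25 and 2.02 FPKM with exosomes (limma adjusted p = 0.726). Egr1, an immediate-early factor, was at 143 FPKM in 10% FBS and 29.6 in 2% HS, a difference of −2.23. Of all genes, 0.522% were lower by more than 1 there, Id3 (−2.82) among them. In receptor assembly 1 of 10 genes tested fell and 0 rose in limma (4.33% and 8.2% of all genes, median 0.09). It was Ubxn2a, named after its value had been seen, with a change of −0.65 (limma adjusted p = 0.0378). Ric3 was listed at 0 in every library. The 11 nicotinic subunit genes of neurons and other tissues did not exceed 0.235 FPKM in any library, and none reached the filter.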

How the data were processed

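RNA of C2C12 cells was sequenced as 75 bp reads in 6 libraries of 5 conditions, grouped by their labels. The labels name a miRNeasy kit for the RNA, and the methods of the study an RNeasy kit. The authors trimmed reads with cutadapt 1.9.1, mapped them to mm10 with TopHat2 2.1.0 and computed FPKM with Cufflinks. The deposited table gives FPKM for each library in its own column, without read counts. Its annotation is not given in the sources used here. FPKM already divides by length and depth, so annotation, multi-mapping reads and strand could affect single genes.

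The FPKM values were used as deposited. Of 20950 entries, 4500 were at 0 in every library, and 10 entries of 5 repeated names were left out. Tmem35a was matched through an older symbol. Differences were taken on log2(FPKM + 1), which understates changes of low genes. The study states a threshold of 1 or −1 on the log2 scale, and it was asked here of each exosome library. limma 3.58.1 (R 4.3.3), with a mean-variance trend and Benjamini-Hochberg adjustment over 10726 genes (mean FPKM 1 or more), fitted 1 mean per condition with 1 residual degree of freedom, and in a run on simulated data the share of unchanged genes among its calls was above the nominal level, so that calls near the threshold are less certain than their adjusted p. Comparisons of single libraries carry no test. Depth was estimated from low FPKM values, of which between 74.5% and 77.6% lay within 0.1 of a whole read, where 20% would if spread evenly. Alternatives were a pseudocount of 0.1 (0.01 for Chrne), values below 1 FPKM raised to 1, scaling to the 75th percentile, division by Rpl13a, no filter, a common exosome effect, with and without the title number as a block (the former added after the data were seen), and leaving out each replicate.

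The members, gene lists and tests were chosen with earlier results of these data known. The genes named are the members, the first gene of each list, list genes past the threshold in both 0.2% FBS + exosome libraries or between 2% HS and 10% FBS, and the 5 genes most correlated with Chrng. Others are given as named after their values were seen.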

Additional observations from a re-analysis of the deposited data

Results flagged for a closer look

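Among the genes named, the exosome change differed between the media by the direct limma test for Fyn and Mef2c, and for no member. The change of Fyn, a Src family kinase, in 0.2% FBS minus that in 2% HS was −1.63 (SE 0.27, limma adjusted p = 0.0335, from 0.00671 to 1 over the alternatives). Fyn was lower in both exosome libraries of 0.2% FBS and higher in the exosome library of 2% HS. For Mef2c, a myogenic cofactor, the same difference was −2.07 (SE 0.27, limma adjusted p = 0.0186, from 0.00493 to 0.812 over the alternatives), with the same directions in the 3 exosome libraries. Each medium has 1 control library, so medium and culture cannot be told apart.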

How the results depend on the processing

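The sign of the exosome change in 0.2% FBS was the same under every alternative run for Chrna1, Chrnb1, Chrnd, Chrng, Rapsn and Dok7. Musk turned to −0.033 with scaling to the 75th percentile and to −0.18 relative to Rpl13a, and Nrg1 to −0.022 relative to Rpl13a and to −0.13 with a common exosome effect. Rpl13a itself was at 618 FPKM in 0.2% FBS, and with exosomes there at 622 FPKM in replicate 1 and 875 in replicate 2. When 1 replicate was left out, Musk ran from −0.12 (without replicate 2) to 0.26, its difference between media from −0.22 to 0.16, Nrg1 from −0.11 (without replicate 1) to 0.39 and Egr1 from −0.19 (without replicate 2) to 0.93. Relative to Rpl13a, Musk in 2% HS with exosomes turned from 0.10 to −0.050, Rapsn in 0.2% FBS against 10% FBS from −0.036 to 0.31 and Dok7 in 2% HS against 10% FBS from −0.31 to 0.21. Chrne was at −0.58 with exosomes in 0.2% FBS, at −1.83 with a pseudocount of 0.1 and at 0 with values below 1 FPKM raised to 1. Members lower in limma were 0, but 2 with a pseudocount of 0.1 and 3 with the scaling. Over all genes tested these counts were 464, 491 and 794. Members past −1 in 0.2% FBS were 1 by the mean of both libraries, and between 0 and 2 when replicate 2 or replicate 1 was left out. Over all genes tested they were 241 by the mean, and 183 and 305 without replicate 2 or replicate 1, in place of 173. In 2% HS the count of lower genes was 32, and 57 with a pseudocount of 0.1, 54 with low values raised and 55 relative to Rpl13a. Relative to Rpl13a, which was at 787 FPKM in 10% FBS and 529 in 2% HS, members higher than in 10% FBS were 4 in 2% HS and 2 in 0.2% FBS in place of 1 and 1, and all such genes were 796 and 407. The fetal minus adult change was 0.81 and 1.41 in 0.2% FBS, and 0.50 and 0.61 in 2% HS, with pseudocounts of 0.1 and 0.01, and in 0.2% FBS it ran from −0.71 to −0.18 when 1 replicate was left out.

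Several settings moved the limma calls over all genes. Lower genes numbered 464, and 794 with the scaling, 92 relative to Rpl13a and 0 with low values raised (2928 genes at an unadjusted p under 0.05 in either direction), with no filter or with a common effect. Higher genes numbered 879, and 842 with the scaling, 10 relative to Rpl13a and 0 in the same 3 settings. Genes that differed between media numbered 125, and 350 with the scaling, 29 relative to Rpl13a and 0 with low values raised (1694 unadjusted) or no filter (2275 unadjusted). The causes were not tested. With 1 control library per medium and 1 residual degree of freedom, the spread between cultures is not measured, and Chrne rests on few reads. Within a medium no comparison shares 2 numbers of the sample titles. Across the media, number 1 marks both 2% HS libraries and number 2 the 0.2% FBS library and its exosome replicate 1, so that the 2 numbers that hold a control cannot be told apart from the media. Exosome replicate 2 carries number 3, which no control has, and a fit with the number as a block takes no exosome difference from it. Such a limma fit of a common exosome effect, with the replicate block added after the data had been seen, called 0 genes lower and 0 higher (295 at an unadjusted p under 0.05) and 0 members. With the block, Chrna1 was at −0.51, Chrng at −0.50, Rapsn at 0.014, Musk at −0.0065, Nrg1 at −0.054 and Egr1 at −0.11. The labels do not say that a number marks a shared culture or day.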
